A study of Mus musculus with 12 samples.

Results

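Chemokines are small secreted proteins that guide migrating leukocytes, and chemokine receptors are the G protein-coupled receptors that read them. Atypical chemokine receptors bind the same ligands without the usual G protein signal and remove or transport them. The genes were taken from the deposited count table by name: every row whose symbol was Ccl, Ccr, Cxcl, Cxcr, Cx3cl, Cx3cr, Xcl, Xcr or Ackr followed by a number and at most 1 letter. The table held 49315 genes. Of these, 67 met the rule, and 66 of them are described here: 45 ligands, 17 receptors and 4 atypical receptors.

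Dorsal root ganglia (DRG), which hold the cell bodies of sensory neurons with their satellite glia and Schwann cells, were taken from 12 mice aged 10 months, with 8 ganglia combined per mouse and 1 library per mouse. The 6 Nf2 mice were Postn-Cre(+);Nf2 flox/flox, and the 6 DKO mice (double knockout) carried Fak1 flox/flox as well, so every animal in the comparison carried the Cre transgene and the floxed Nf2 alleles and no wild-type library was analysed here. Each genotype had 3 mice labelled male and 3 labelled female. Postn-Cre is active in the Schwann cell lineage, whereas the whole ganglion, leukocytes and vessels included, was sequenced.

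In nerve, resident macrophages carry Cx3cr1 and receive its membrane-bound ligand Cx3cl1 from neurons, while Ccr2 with its ligands Ccl2, Ccl7 and Ccl12 brings monocytes in from the blood. Neutrophils follow Cxcl1, Cxcl2, Cxcl3 and Cxcl5 through Cxcr2, T cells follow the interferon-induced Cxcl9, Cxcl10 and Cxcl11 through Cxcr3, and B cells follow Cxcl13 through Cxcr5. Cxcl12, Cxcl14, Ccl25, Ccl27a and Ccl28 are counted among the homeostatic ligands, which tissues make without inflammation.

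Library totals ran from 21129191 to 41250329 counts, so that 1 read was worth 0.0473 CPM (the read count scaled to the library total) in the shallowest library and 0.0242 CPM in the deepest. The floxed genes were examined first. Nf2 ranged from 109 to 143 CPM in Nf2 mice and from 99.2 to 132 CPM in DKO mice, and Ptk2, the gene of Fak, from 65.8 to 75.5 and from 46.5 to 76.0 CPM (edgeR adjusted p 0.529), so whole-gene counts did not separate the genotypes by the deleted gene. For the library labelled male of mouse 702, Xist stood at 496 CPM and Ddx3y at 0.525 CPM, inside the range of the 6 libraries labelled female. Comparisons by sex were therefore repeated in edgeR without it. Markers of the labelled tissue were present in every library, with 9 Schwann cell markers summing to 7659 to 11160 CPM and 10 sensory neuron markers to 4417 to 6443 CPM.

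Chemokine transcripts were scarce. The 66 genes took 0.0283% to 0.0365% of the reads of a library. No read was counted for 10 rows, 56 had at least 1 read, and 33 had enough reads for the test. Of the 10 rows without a read, 7 lay on unplaced scaffolds and 3, Ccl21a, Ccl21b and Ccl27b, on chromosome 4. These are near-identical copies of one another or of Ccl27a and Ccl19, and reads that match several copies may not have been counted, so their zeros are uncertain.

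Levels were compared between genes per length of exon, as CPM per kilobase of exon (RPKM), over all 12 mice. Ccl11 (eotaxin, which attracts eosinophils through Ccr3) stood highest at 36.7 ± 6.44 RPKM (mean ± SD, n = 12), followed by Ackr1, the chemokine-binding receptor of venular endothelium, at 26.5 ± 5.95. Cx3cr1 came next at 8.30 ± 2.37, then Ccl27a at 8.11 ± 1.56, Cxcl12 at 7.85 ± 0.995 and Cxcl13 at 6.04 ± 3.98. The step from Ackr1 to Cx3cr1 was the only place among the 27 genes with a mean of at least 1 CPM where the ranges of neighbours did not overlap. From Cx3cr1 down to Cxcl9, the lowest of the 27 at 0.522 ± 0.589 RPKM, each gene overlapped the next, and their order is a description. The exons of Ackr1 share 361 of 1405 bases with Cadm3 on the same strand, which had a mean of 470.1 CPM. How reads in the shared bases were counted was not given. The Ackr1 level may therefore include reads of Cadm3 or lack reads from these bases. Cxcl11 shares 1582 of its 3794 exon bases with Gm2673 on the opposite strand, and whether the counting used strand was not given.

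**Figure D1:**
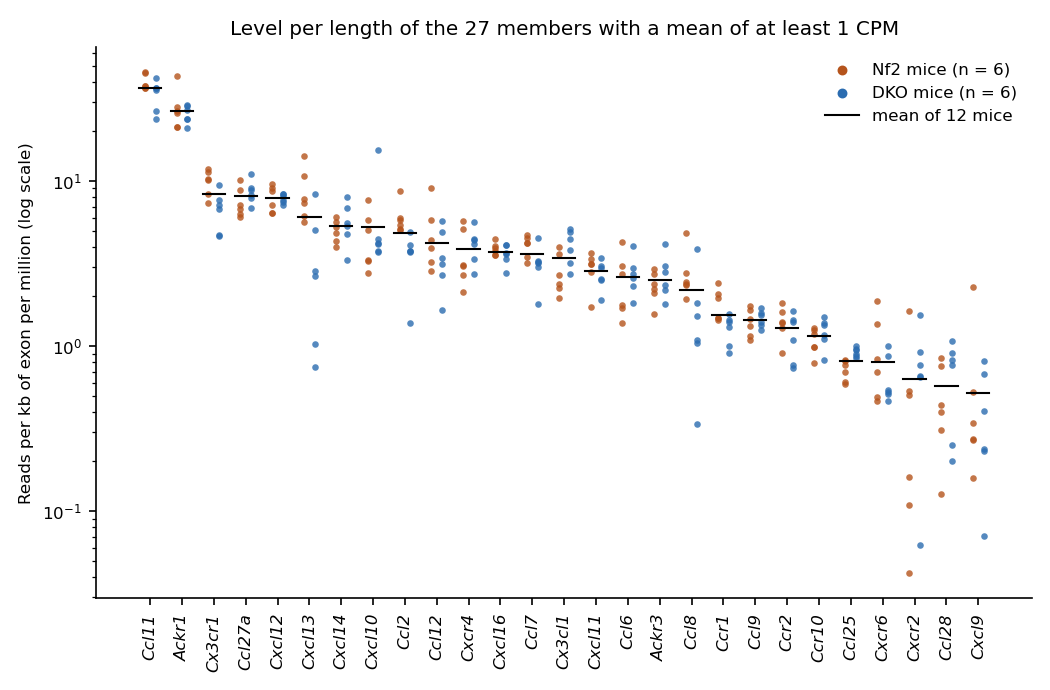
RPKM (vertical axis, log scale) for the 27 chemokine and receptor genes with a mean of at least 1 CPM, ordered by the mean of the 12 mice (bar). Each point is 1 mouse, with 6 Nf2 and 6 DKO mice, and Ccl11 and Ackr1 lie above the continuous slope formed by the other genes.

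The comparison of DKO with Nf2 ganglia asked how loss of Fak in addition to Nf2 altered these genes. None of the 33 tested genes described here passed (0 genes at an edgeR adjusted p of 0.05), where 0.94% of all 18295 tested genes did (0.568% lower and 0.372% higher in DKO). At an unadjusted p under 0.05 there were 8 of 33, 6 lower and 2 higher in DKO, where 14.9% of all genes reached it (7.96% lower and 6.91% higher). DESeq2 called 3 of the 33, with Cx3cr1 and Ccl2 lower and Ccl25 higher (4.64% of all genes by that tool), and limma voom called 1, Ccl5, lower (2.85%). No other tool or setting called Cx3cr1, Ccl2 or Ccl25. The direction was lower in 19 of 33, against 49% of all genes, and the median log2 fold change was -0.13, against 0.005 for all genes. The 95% confidence interval lay within a 2-fold change in either direction for 20 of 33 and reached a 2-fold change for 13, so for these 13 a change of that size cannot be set aside. These genes varied more between mice than most. Their median biological coefficient of variation was 25.9%, against 15.7% over all genes, and 30 of 33 lay above that value. It ran from 13.4% for Cxcl12, the member with the highest mean CPM, to 84.8% for Cxcr2. All tested genes served as reference whatever their level, and the part of low level in this difference was not tested.

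**Figure D2:**
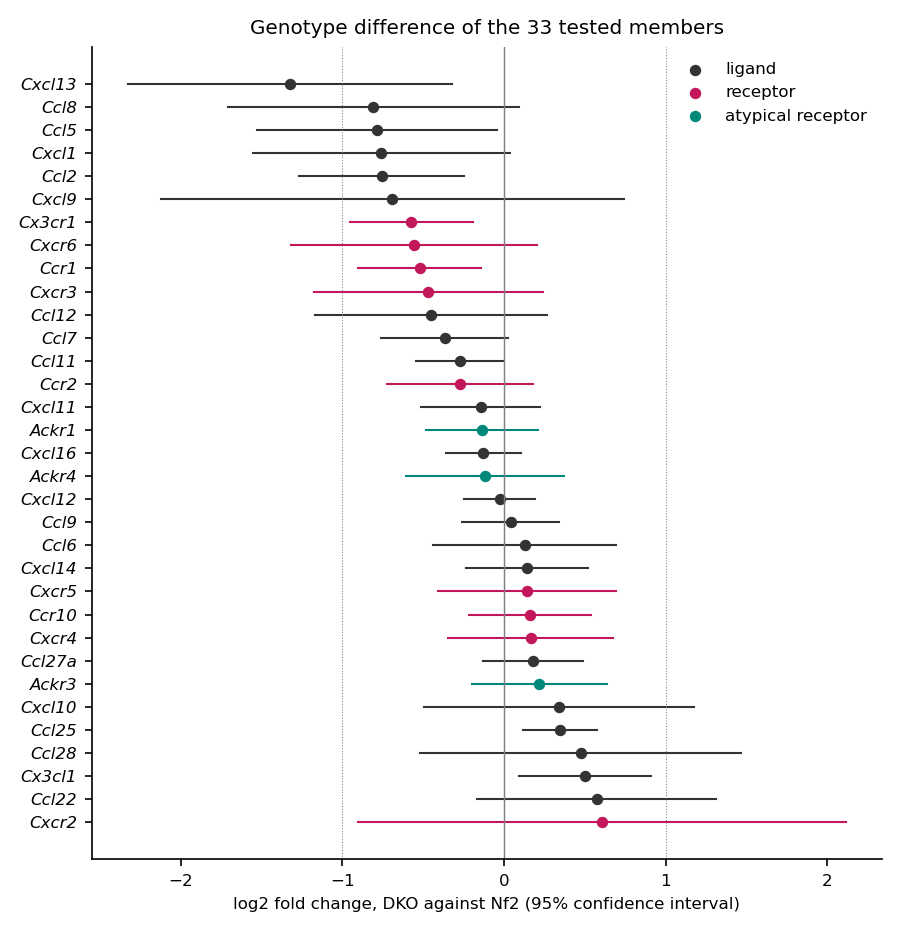
Log2 fold change of DKO against Nf2 with its 95% confidence interval from edgeR (horizontal axis) for the 33 tested genes, sorted by fold change and coloured by class, with dotted lines at a 2-fold change. Estimates run from -1.33 for Cxcl13 to 0.61 for Cxcr2, and 13 intervals reach a dotted line.

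Receptors were examined next, and those of monocytes and macrophages had lower means in DKO. Cx3cr1 (ENSMUSG00000052336, chromosome 9, 119901616 to 120069879), the fractalkine receptor of resident macrophages, ranged from 33.1 to 53.1 CPM (median 46.0) in Nf2 mice and from 20.9 to 42.7 CPM (median 31.4) in DKO mice. All 6 DKO mice lay below the Nf2 mean, and the ranges overlapped between 33.1 and 42.7 CPM. The fitted log2 fold change came to -0.57 ± 0.18 (± SE, as for all fold changes here, with an edgeR adjusted p of 0.141). Over 23 alternatives the adjusted p ranged from 0.0440 (DESeq2) to 0.645 (edgeR, mice labelled female only). With 1 mouse left out it ranged from 0.0974 to 0.255 (edgeR). Ccr1 (ENSMUSG00000025804, chromosome 9, 123962124 to 123968692), a receptor of myeloid cells for ligands such as Ccl9, ranged from 4.07 to 6.83 CPM (median 4.84) in Nf2 mice and from 2.56 to 4.43 CPM (median 3.84) in DKO mice. Again all 6 DKO mice were below the Nf2 mean, while the highest DKO mouse exceeded the lowest Nf2 mice (-0.52 ± 0.18, edgeR adjusted p 0.175). Ccr2 (ENSMUSG00000049103, chromosome 9, 124101950 to 124113557), the receptor of inflammatory monocytes, ranged from 6.09 to 12.3 CPM (median 9.38) in Nf2 mice and from 4.97 to 11.0 CPM (median 8.45) in DKO mice. Only 3 of 6 DKO mice were below the Nf2 mean, and the log2 fold change was -0.27 ± 0.21 with an interval of -0.72 to 0.18 (edgeR adjusted p 0.600).

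Markers of macrophages and monocytes were mostly lower as well. Of 14 such genes 11 were lower in DKO and 1 passed the test: C1qb, a subunit of the complement starter C1q, fell (log2 fold change -0.71, edgeR adjusted p 0.0138). For Csf1r, the growth factor receptor of the lineage, the value was -0.65 (0.0566). Cd163, a scavenger receptor, and Lyz2, a lysozyme gene, had values of the other sign, 1.48 and 0.38 (edgeR adjusted p 0.169 and 0.372), and were named after their values were seen. The summed level of the 14 was 270.1 to 394 CPM (median 369.9) over the Nf2 mice against 247 to 369.6 CPM (median 325) over the DKO mice, and no marker was at 0. In bulk tissue, fewer cells of a type and less RNA per cell cannot be told apart. The part of these markers in the Cx3cr1 and Ccr1 differences was not tested.

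The receptors of lymphocytes and neutrophils showed wide spread. Cxcr6, a T cell receptor for the membrane-anchored Cxcl16, had 1.84 ± 1.07 CPM in Nf2 and 1.26 ± 0.434 in DKO mice (mean ± SD, n = 6), a log2 fold change of -0.56 ± 0.35. Its highest value, 3.60 CPM, belonged to mouse 702. Cxcr2, the neutrophil receptor, ranged from 0.128 to 4.93 CPM (median 1.01) in Nf2 mice and from 0.189 to 4.66 CPM (median 2.16) in DKO mice, a spread that covered both genotypes, and its interval of -0.90 to 2.12 was the widest among the 33. The 8 neutrophil markers spread in the same manner, with a summed level of 13.7 to 448 CPM (median 76.1) over the Nf2 mice against 16.2 to 380.0 CPM (median 191) over the DKO mice. All 8 were higher in DKO by fold change and none passed the test, and their part in the Cxcr2 values was not tested. Cxcr4, the receptor of Cxcl12, had 6.56 ± 2.61 and 7.45 ± 1.78 CPM (0.17 ± 0.24), and Ccr10, the receptor of Ccl27a and Ccl28, had 1.86 ± 0.328 and 2.11 ± 0.420 CPM (0.16 ± 0.18). Neither difference exceeded the spread between mice.

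Of the atypical receptors, Ackr1 (ENSMUSG00000037872, chromosome 1, 173331886 to 173333750) ranged from 29.7 to 60.6 CPM (median 36.6) in Nf2 mice and from 29.5 to 40.6 CPM (median 35.5) in DKO mice. Mouse 649 alone lay above 40.6 CPM, and the log2 fold change of -0.14 ± 0.16 became 0.04 without it. Ackr3, a scavenger of Cxcl12, had 7.73 ± 1.64 CPM in Nf2 and 9.12 ± 2.82 CPM in DKO mice (0.22 ± 0.19, or 0.06 without mouse 886). The 8 endothelial markers were all higher in DKO by fold change without passing the test (median log2 fold change 0.24), with a summed level of 116 to 178 CPM (median 142) over the Nf2 mice against 145 to 264 CPM (median 189) over the DKO mice. Their part in the levels of these receptors was not tested.

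**Figure D3:**
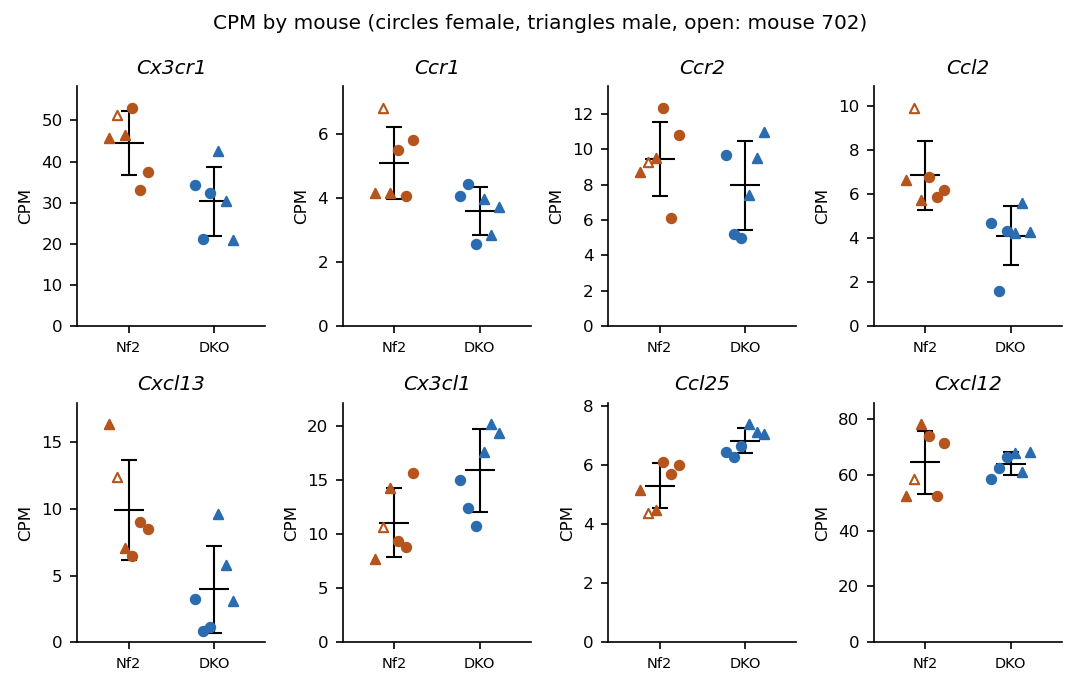
CPM of 8 genes in each mouse, as points (circles labelled female, triangles labelled male, open for mouse 702), with the mean and SD of the 6 mice per genotype. Ccl2 and Ccl25 do not overlap between genotypes, the other 6 do, and Cxcl12 has nearly equal means. The genes were chosen for display after their values were seen.

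The ligands of Ccr2 lie side by side on chromosome 11 with Ccl11 and Ccl8. All 5 tested genes of this cluster (Ccl2, Ccl7, Ccl11, Ccl12 and Ccl8, within 79.6 kb between gene starts) had lower means in DKO, none past the edgeR threshold. Ccl2 (ENSMUSG00000035385, chromosome 11, 82035571 to 82037453), a major monocyte attractant, ranged from 5.71 to 9.90 CPM (median 6.41) in Nf2 mice and from 1.58 to 5.58 CPM (median 4.29) in DKO mice. The 2 genotypes did not overlap, which held for 2 of the 33 genes and for 1.95% of all genes. The fold change on the log2 scale came to -0.76 ± 0.24, at an edgeR adjusted p of 0.146. The adjusted p ranged from 0.0420 (DESeq2) to 0.613 over the alternatives, single sexes included, and from 0.124 to 0.258 with 1 mouse left out (edgeR). In CPM the extremes were mouse 702 at the top and mouse 886 at the bottom. Ccl7 had 3.23 ± 0.469 and 2.54 ± 0.687 CPM (-0.37 ± 0.18, edgeR adjusted p 0.375), and 5 of 6 DKO mice were below the Nf2 mean. Ccl12 had 2.61 ± 1.22 and 1.93 ± 0.801 CPM (-0.45 ± 0.33, 0.579), with mouse 702 highest at 4.84 CPM. Ccl8, a ligand of resident macrophages, had 1.42 ± 0.528 and 0.825 ± 0.625 CPM (-0.81 ± 0.42, 0.393).

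Ccl11 (ENSMUSG00000020676, chromosome 11, 82057823 to 82062955) was the most abundant gene of the cluster and the most even, ranging from 39.5 to 49.4 CPM (median 40.7) in Nf2 mice and from 25.6 to 45.5 CPM (median 39.1) in DKO mice. The 2 lowest mice, 887 and 886, were both DKO, and 5 of 6 DKO mice were below the Nf2 mean. The log2 fold change was -0.27 ± 0.13, with an interval of -0.54 to -0.002 and an edgeR adjusted p of 0.331. Of the 8 fibroblast markers, which include stromal genes of cells that can make Ccl11, 3 were lower and 5 higher in DKO and none passed. They summed to 1799 to 2265 CPM (median 2077) over the Nf2 mice against 1362 to 2289 CPM (median 1874) over the DKO mice, and mouse 886 was the lowest of the 12.

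A second cluster on chromosome 11 did not share this direction. Ccl9, a myeloid ligand of Ccr1, had 4.28 ± 0.825 and 4.47 ± 0.507 CPM (0.04 ± 0.14), and its neighbour Ccl6 had 4.46 ± 1.96 and 4.94 ± 1.35 CPM (0.13 ± 0.26). Ccl5, a product of T and NK cells named here after its values were seen, had 0.797 ± 0.224 and 0.467 ± 0.288 CPM (-0.78 ± 0.34, edgeR adjusted p 0.303, limma voom adjusted p 0.0490). The T and NK cell markers had 6 of 8 tested genes lower and none past the test, and summed to 5.76 to 11.4 CPM (median 8.32) over the Nf2 mice against 6.30 to 9.85 CPM (median 6.65) over the DKO mice. Their part in the Ccl5 and Cxcr6 values was not tested. On chromosome 9, Cxcr6, Ccr1 and Ccr2, the 3 tested genes described here of a receptor cluster, all had lower means in DKO.

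**Figure D4:**
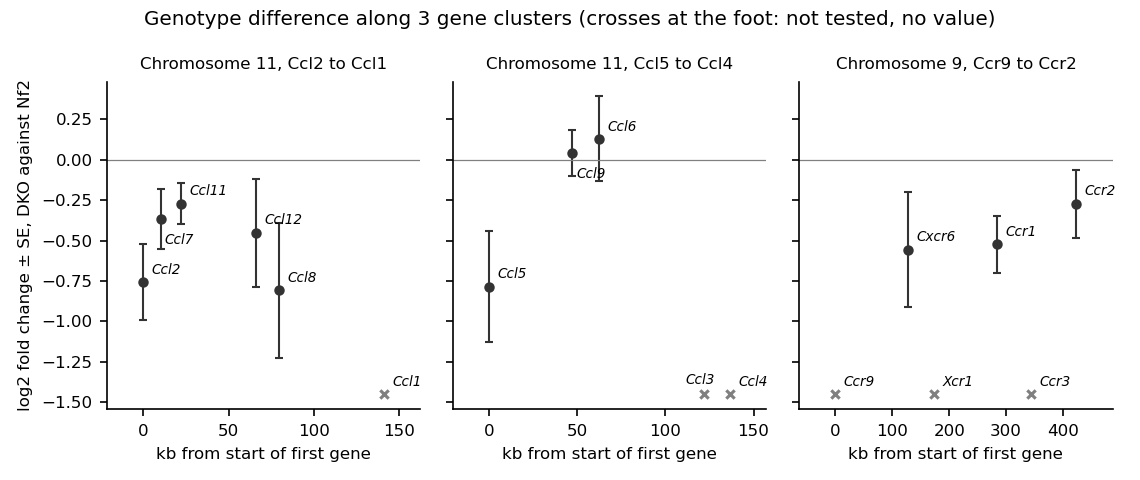
Log2 fold change of DKO against Nf2 (± SE, vertical axis) by distance in kilobases from the start of the first gene, for clusters of genes less than 500.0 kb apart on chromosomes 11 and 9, with crosses at the foot for genes with too few reads to test. All 5 tested genes from Ccl2 to Ccl8 and all 3 from Cxcr6 to Ccr2 lie below zero, whereas Ccl9 and Ccl6 lie above it.

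The mean of fractalkine differed in the direction opposite to that of its receptor. Cx3cl1 (ENSMUSG00000031778, chromosome 8, 94772009 to 94782427) ranged from 7.71 to 15.6 CPM (median 10.0) in Nf2 mice and from 10.7 to 20.1 CPM (median 16.3) in DKO mice, and 5 of 6 DKO mice were above the Nf2 mean. The log2 fold change came to 0.50 ± 0.19 at an edgeR adjusted p of 0.222, and neither Cx3cl1 nor Cx3cr1 passed the threshold. Of the sensory neuron markers 6 of 10 were lower and 4 higher, with a median log2 fold change of -0.01, and their part in the Cx3cl1 values was not tested. Cxcl16, likewise anchored in the membrane, had 11.7 ± 1.01 and 10.9 ± 1.504 CPM (-0.13 ± 0.11). It shares 552 of 3021 exon bases with Zmynd15 on the opposite strand.

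Cxcl13 (ENSMUSG00000023078, chromosome 5, 95956951 to 95961068), the B cell attractant, had the lowest fold change of the 33. It ranged from 6.49 to 16.3 CPM (median 8.72) in Nf2 mice and from 0.852 to 9.58 CPM (median 3.16) in DKO mice. All 6 DKO mice were below the Nf2 mean, yet mouse 914 overlapped the Nf2 range, and the log2 fold change of -1.33 ± 0.47 had an interval of -2.33 to -0.32 (edgeR adjusted p 0.190). Of the B and plasma cell markers 7 of 8 were higher in DKO, 5 of them at an unadjusted p under 0.05 and none past the test. Pax5, a transcription factor of B cells, had the smallest p of that list (1.40, edgeR adjusted p 0.0798). The list summed to 31.6 to 64.1 CPM (median 41.6) over the Nf2 mice against 30.2 to 72.2 CPM (median 48.5) over the DKO mice, and its part in the Cxcl13 values was not tested.

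Among the homeostatic ligands, Cxcl12 (ENSMUSG00000061353, chromosome 6, 117168535 to 117181367) gave the narrowest interval of the 33. It ranged from 52.3 to 78.0 CPM (median 64.8) in Nf2 mice and from 58.4 to 68.2 CPM (median 64.3) in DKO mice, and all 6 DKO mice lay inside the Nf2 range. The log2 fold change came to -0.03 ± 0.10 with an interval of -0.25 to 0.19 (edgeR adjusted p 0.933). Ccl25 (ENSMUSG00000023235, chromosome 8, 4325210 to 4360020), the ligand of Ccr9, ranged from 4.39 to 6.12 CPM (median 5.44) in Nf2 mice and from 6.30 to 7.39 CPM (median 6.88) in DKO mice. It was the other gene without overlap, with the lowest DKO mouse just above the highest Nf2 mouse. Its log2 fold change was 0.35 ± 0.11 (edgeR adjusted p 0.138). This p ranged from 0.0436 (DESeq2) to 0.915 over the alternatives, single sexes included, and from 0.152 to 0.244 with 1 mouse left out (edgeR). Its exons share 204 of 7445 bases with Elavl1 on the opposite strand. Ccl27a had 18.0 ± 3.86 and 20.6 ± 3.32 CPM (0.18 ± 0.14), Cxcl14 had 9.19 ± 1.44 and 10.3 ± 2.95 CPM (0.14 ± 0.18, or 0.02 without mouse 915), and Ccl28 had 2.32 ± 1.32 and 3.24 ± 1.73 CPM (0.47 ± 0.46). For these 3 the difference was smaller than the SD of either genotype.

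Among the interferon-induced ligands, the fold changes of Cxcl10 and Cxcl9 turned on 1 mouse each. Cxcl10 (ENSMUSG00000034855, chromosome 5, 92346638 to 92348889) ranged from 6.27 to 17.3 CPM (median 9.36) in Nf2 mice and from 8.39 to 34.5 CPM (median 9.38) in DKO mice, and its highest value came from mouse 887, with the next DKO mouse at 10.0 CPM. The log2 fold change was 0.34 ± 0.39 with all mice and -0.23 without mouse 887. Cxcl9 ranged from 0.477 to 6.83 CPM (median 0.924) in Nf2 mice and from 0.213 to 2.46 CPM (median 0.967) in DKO mice, and its highest value came from mouse 702. The log2 fold change was -0.69 ± 0.67 with all mice and 0.34 without mouse 702. Cxcl11 was steadier at 11.3 ± 2.57 and 10.3 ± 1.98 CPM (-0.14 ± 0.17), under the limit of the overlap with Gm2673 given above. The annotation used here (GENCODE M21) classes Cxcl11 as a polymorphic pseudogene, so its reads may not stand for a working ligand.

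The attractants of neutrophils were rare transcripts. Cxcl3 (ENSMUSG00000029379, chromosome 5, 90786103 to 90789600) had 2 to 18 reads per Nf2 library and 0 to 3 per DKO library, too few for the filter. Its log2(CPM + 4), the scale of the study's methods, was 2.10 ± 0.06 in Nf2 and 2.02 ± 0.02 in DKO mice, a difference of -0.08 with all 6 DKO mice below the Nf2 mean (two-sided exact permutation p 0.00649 over 924 splits, where the smallest possible is 0.00216). The pseudocount of 4 is many times the level of the gene, so this difference understates the ratio. Without a count filter the edgeR log2 fold change was -2.43 with an adjusted p of 0.104. The study had plotted Cxcl3 from these libraries, so its difference is not independent evidence. The cluster neighbours Cxcl2, Cxcl5 and Cxcl1, named here after their values were seen, were also lower on average. Cxcl2 had 0.545 ± 0.263 and 0.190 ± 0.148 CPM, Cxcl5 0.474 ± 0.157 and 0.272 ± 0.0522 CPM, and Cxcl1 0.756 ± 0.184 and 0.456 ± 0.283 CPM. Of these only Cxcl1 had enough reads for the test (-0.76 ± 0.37, edgeR adjusted p 0.362). Cxcl15, in the same cluster, had 3 reads in all, with means of 0.0061 CPM in Nf2 and 0.0081 CPM in DKO mice. The chemokine-like ligands Ppbp and Pf4, outside the name rule and also named after their values were seen, had higher means in DKO. Their log2 fold changes were 0.88 and 0.24 (edgeR adjusted p 0.623 and 0.659).

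The promoters of Cxcl1, Cxcl2 and Cxcl3 carry the same NF-kB consensus match shortly before the gene start, and they are shown with that of Cxcl10, which holds other versions of it. They were chosen after the matches were seen. Sequences are from RefSeq on GRCm38, 250 bases before to 50 after the gene start, 5′ to 3′ on the gene's strand, with capitals for the matches and, in Cxcl10, also for a match to the interferon-stimulated response element core.
Cxcl1 (chr5:90890995-90891294, plus strand): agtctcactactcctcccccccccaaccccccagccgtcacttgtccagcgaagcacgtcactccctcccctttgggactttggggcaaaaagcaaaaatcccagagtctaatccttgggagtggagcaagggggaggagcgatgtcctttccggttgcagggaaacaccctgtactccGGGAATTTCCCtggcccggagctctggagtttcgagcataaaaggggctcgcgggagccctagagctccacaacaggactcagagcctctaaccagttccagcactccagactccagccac
Cxcl2 (chr5:90903649-90903948, plus strand): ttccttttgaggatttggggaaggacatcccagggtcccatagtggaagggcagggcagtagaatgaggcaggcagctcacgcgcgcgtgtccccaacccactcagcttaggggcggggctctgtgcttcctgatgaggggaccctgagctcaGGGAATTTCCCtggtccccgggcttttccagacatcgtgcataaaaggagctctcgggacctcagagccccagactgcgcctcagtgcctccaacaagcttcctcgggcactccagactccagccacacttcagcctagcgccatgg
Cxcl3 (chr5:90785851-90786150, plus strand): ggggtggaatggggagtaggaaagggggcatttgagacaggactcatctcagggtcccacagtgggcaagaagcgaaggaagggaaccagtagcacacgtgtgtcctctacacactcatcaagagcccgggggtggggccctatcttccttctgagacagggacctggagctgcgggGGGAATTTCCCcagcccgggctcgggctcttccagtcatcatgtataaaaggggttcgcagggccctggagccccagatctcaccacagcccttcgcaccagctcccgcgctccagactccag
Cxcl10 (chr5:92348840-92349139, minus strand): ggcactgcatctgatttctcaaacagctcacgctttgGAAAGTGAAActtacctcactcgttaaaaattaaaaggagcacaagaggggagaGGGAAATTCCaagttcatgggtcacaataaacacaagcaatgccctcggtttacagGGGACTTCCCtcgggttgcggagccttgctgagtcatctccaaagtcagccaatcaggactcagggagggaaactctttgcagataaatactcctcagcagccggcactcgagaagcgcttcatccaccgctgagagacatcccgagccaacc

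The shared match GGGAATTTCC began at position -71 in Cxcl1, -97 in Cxcl2 and -73 in Cxcl3, counted from the gene start, and overlaps a second match on the other strand. Promoters were found for 45 of the genes, 52 promoters in all, and 4 motifs were searched on both strands. The NF-kB consensus occurred in 10 of 52 promoters (19.2%) against 4.51% of 32851 promoters, and TATAAA in 14 of 52 (26.9%) against 13.6%. The interferon-stimulated response element core (TTTC, 2 bases of any kind, TTTC) occurred in 3 of 52 (5.77%) against 3.44%, and the STAT motif TTCNNNGAA in 3 of 52 (5.77%) against 8.3%. Clustered ligands arose by gene duplication, so these promoters are not independent, and a match is a description of letters, not of binding.

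Below the filter were 23 genes with reads, 14 ligands, 8 receptors and 1 atypical receptor, none of which had over 51 reads in a library. They include both lymph node homing partners Ccr7 and Ccl19, the eosinophil receptor Ccr3, the second neutrophil receptor Cxcr1, and Xcl1 with its receptor Xcr1. Ccr3 had 1 to 7 reads per Nf2 library and 0 to 1 per DKO library, and Ccr8, like Ccr3 singled out after its counts were seen, had reads in Nf2 libraries alone (4 in all). When edgeR was fitted without a count filter, none of the 56 genes with reads passed (0 genes, smallest adjusted p 0.104 for Cxcl3), where 0.485% of 35643 genes did, and 12 of 56 reached an unadjusted p under 0.05 (10.3% of all genes). Of the 23 genes these were Cxcl3, Ccr3, Cxcl2 and Cxcl5, all lower in DKO.

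Genes that act with chemokines were taken from 3 lists. Of 20 tested cytokines and transcription factors that induce chemokines, 17 were lower and 3 higher in DKO, and none passed the test. Rela and Nfkb1, which encode NF-kB subunits, had the smallest p of that list, with log2 fold changes of -0.23 and -0.34 (edgeR adjusted p 0.0870 and 0.0975). The subunit genes Relb and Nfkb2 had -0.31 and -0.14 (edgeR adjusted p 0.358 and 0.694), and Il17a had no read. Of 29 genes of receptor signal transduction 21 were lower and 8 higher, none past the test. Gnai2, an inhibitory G protein subunit, had -0.19, the GTPase gene Rac1 -0.21 and Elmo1, which activates Rac, 0.26 (edgeR adjusted p 0.154, 0.158 and 0.143). Of 9 chemokine-like ligands, receptors and processing enzymes outside the name rule 5 were lower and 4 higher, none past the test, with Dpp4, a peptidase that trims chemokines, at 1.12 and Rarres2, which encodes chemerin, at -0.45 (edgeR adjusted p 0.130 and 0.136).

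Other tissues differed between libraries as well. All 8 skeletal muscle markers were lower in DKO, 7 at an unadjusted p under 0.05 and none past the test, and they summed to 12.0 to 847 CPM (median 559.7) over the Nf2 mice against 16.9 to 277 CPM (median 74.8) over the DKO mice. Of 6 tested dendritic cell markers 2 were lower and 4 higher in DKO. Only Siglech, of plasmacytoid dendritic cells, passed the test, and it fell (log2 fold change -0.96, edgeR adjusted p 0.0472). The list includes the receptor Xcr1. It summed to 45.6 to 52.1 CPM (median 47.7) over the Nf2 mice against 44.5 to 49.7 CPM (median 46.6) over the DKO mice. Lymphatic endothelial markers were 3 lower and 2 higher with none past the test, and Schwann cell markers 4 lower and 5 higher with none past the test. The part of these tissues in the chemokine values was not tested.

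The libraries were then compared by labelled sex, with genotype as a covariate, and the genotype effect was compared between sexes as an interaction. No gene of the 33 passed in either comparison (0 by edgeR, DESeq2 and limma voom), where 0.0164% and 0.0109% of all genes passed by edgeR, 0.0274% and 0.109% by DESeq2, and 0 and 0.0109% by limma voom. Without mouse 702 edgeR likewise called 0 of 34 tested genes in both, where 10 (by sex) and 2 (interaction) of all 18513 genes passed. The other tools were not run without it. At an unadjusted p under 0.05 there were 3 of 33 by sex (2.91% of all genes) and 6 of 33 for the interaction (4.78%). By sex these were Ccl28, lower in males (-1.17, or -1.35 without mouse 702), Ccl11, higher (0.31 and 0.29), and Cxcl13, higher (1.15 and 1.22), all with an edgeR adjusted p of 0.9999 (0.9997 without mouse 702, when they were 3 of 34). Cxcl13 was at 0.852 to 3.26 CPM in the 3 DKO females and at 3.07 to 9.58 CPM in the 3 DKO males.

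For the interaction the 6 genes were Cxcl10, Ccl25, Cxcl16, Cxcl11, Cxcl14 and Ccl22, the last named after its values were seen, each at an edgeR adjusted p of 0.920. Without mouse 702 there were 3 of 34, Ccl22, Cxcl10 and Cxcl11. The share of all genes reaching that unadjusted p without mouse 702 was not worked out, for sex or for the interaction. The interaction value of Ccl22 was 1.89 (1.86 without mouse 702), that of Cxcl11 0.72 (0.77), that of Cxcl14 0.67 (0.56), that of Ccl25 0.45 (0.41) and that of Cxcl16 -0.46 (-0.41). Cxcl10 had the lowest interaction value, -2.0 (-1.81 without mouse 702, edgeR adjusted p 0.772). It ranged over 6.27 to 7.44 CPM in Nf2 females, 8.39 to 34.5 CPM in DKO females, 11.3 to 17.3 CPM in Nf2 males with mouse 702 highest, and 8.49 to 9.43 CPM in DKO males. By labelled sex, the 3 DKO females were above the 3 Nf2 females and the 3 DKO males below the 3 Nf2 males. Mouse 702 is among these Nf2 males, though its sex-linked genes lay in the female range. Counted as a female, it would make the Nf2 and DKO females overlap.

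**Figure D5:**
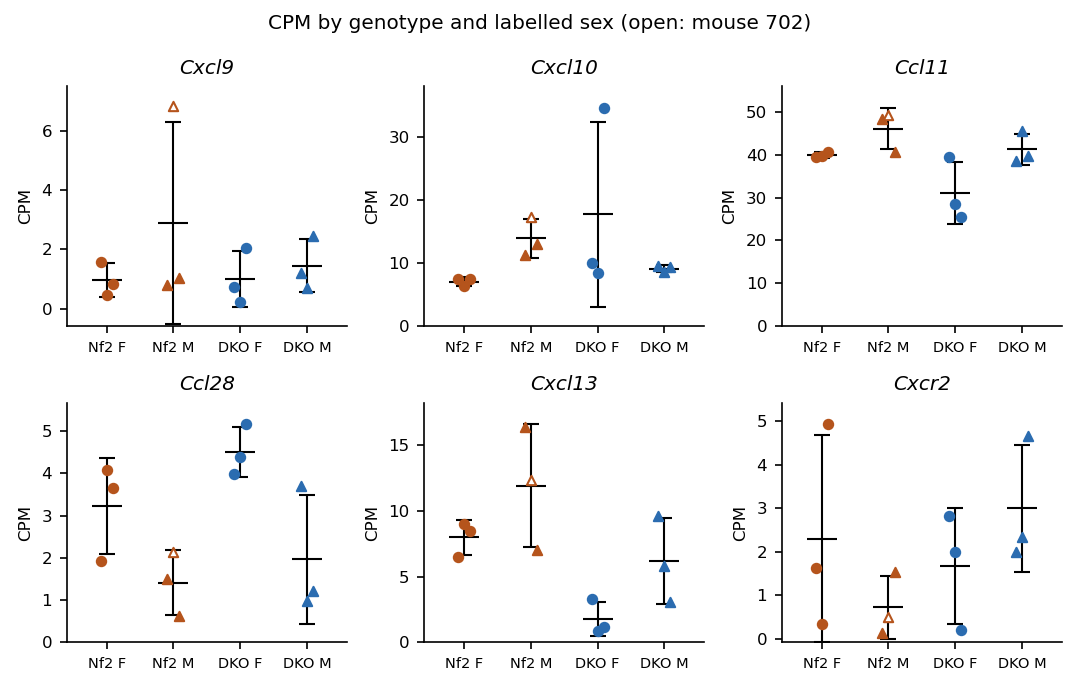
CPM of 6 genes in each mouse by genotype and labelled sex (F female, M male), with the mean and SD of 3 mice, and mouse 702 as an open triangle. Cxcl9 in Nf2 males and Cxcl10 in DKO females each rest on 1 high mouse, and the genes were chosen for display after their values were seen.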

How the data were processed

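The members and gene lists were chosen with earlier results of these data known. Per the submitters' processing notes, reads were trimmed with Trimmomatic 0.36, aligned with STAR 2.5.2b to GRCm38 and counted with featureCounts of Subread 1.5.2. Strand and multi-mapping settings were not given in the sources used here. The authors deposited raw counts, 1 whole number per gene and mouse, without normalization. The poly(A) libraries were made by a commercial provider. Of 67 rows matching the name rule, 1 is not reported here. It remains among the 18295 tested genes and enters no count of members, so counts over the described genes, a count of 0 included, do not hold for the whole family.

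Counts were analysed in R 4.3.3. Genes were kept by filterByExpr of edgeR 4.0.16 with genotype as group, scaled by TMM and compared by the quasi-likelihood F test on all 12 mice, with Benjamini-Hochberg adjustment over all tested genes and a threshold of 0.05. Genotype was a covariate in the sex model. CPM used library totals, and RPKM used exon lengths of GENCODE M21 (49056 of 49315 identifiers matched). Alternatives were other scalings and filters, DESeq2 1.42.0, limma 3.58.1 (voom with quality weights), sex as covariate, single sexes and each mouse left out. The males without mouse 702 were added after seeing the data. The tools were tested on simulated data, where DESeq2 made more false calls than its threshold allows. These data were drawn once, with the spread between mice as estimated by edgeR, a setting that may favour edgeR. The criteria for passing were changed after a first failure, and the limit on false calls was then kept for edgeR alone. Replicates are separate mice.

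Among the 66 described rows, values were given for genes with a mean of at least 1 CPM or past an edgeR threshold, and for Cxcl3. Up to 3 genes with the smallest p were named per list (macrophage and monocyte, T and NK cell, B and plasma cell, neutrophil, dendritic cell, endothelial cell, lymphatic endothelial cell, fibroblast, Schwann cell, sensory neuron, skeletal muscle, chemokine-like, signal transduction, inducers). Figures were drawn in Python 3.11.15 with matplotlib 3.10.9.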

Additional observations from a re-analysis of the deposited data

Results flagged for a closer look

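Samples far from the others of their genotype were sought in 56 groups of 6 mice (27 genes and Cxcl3 in each genotype), by the gap to the nearest mouse relative to the range (Dixon's criterion, 95%). There were 7. Chance gives 2.8 for independent, normally distributed groups, but these genes share the same mice, so the 2 numbers are not directly comparable. Among Nf2 mice, Ackr1 was highest in mouse 649 at 60.6 CPM (nearest 39.4), Cxcr2 in mouse 1049 at 4.93 CPM (nearest 1.62) and Ccl8 in mouse 884 at 2.46 CPM (nearest 1.42). Mouse 702 was highest for Ccl2 at 9.90 CPM (nearest 6.76) and for Cxcl9 at 6.83 CPM (nearest 1.59). Among DKO mice, Cxcl10 was highest in mouse 887 at 34.5 CPM (nearest 10.0), and Ccl2 was lowest in mouse 886 at 1.58 CPM (nearest 4.22). Of the 27 genes, mouse 702 had the highest value of the 12 mice in 8 and the lowest in 4. Why these libraries stood apart was not tested.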

How the results depend on the processing

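The number of tested members described here that were past the threshold for genotype was 0 with edgeR as reported and in every alternative but 2, DESeq2 with 3 and limma voom with 1; the cause was not tested. DESeq2 called 831 genes of the whole table, limma voom 521 and edgeR 172. With each mouse left out no described member was called (0). Directions turned for small differences and also for larger ones. With all mice the log2 fold change was 0.61 for Cxcr2, -0.69 for Cxcl9, -0.56 for Cxcr6 and -0.45 for Ccl12, and each turned in at least 1 alternative. In the females, the log2 fold changes became 0.071 (Ackr1), 0.095 (Cxcl16), -0.23 (Cxcl14), -0.17 (Cxcr4), -0.031 (Ccl6), 0.24 (Ccl12), -0.45 (Cxcr2) and 0.016 (Cxcl9). In the males they became 0.016 (Cxcl12, -0.036 without mouse 702), -0.65 (Cxcl10) and 0.21 (Cxcl11), and in the males without mouse 702 -0.037 (Ccl27a), -0.47 (Cxcl10), 0.26 (Cxcl11), -0.095 (Ccl9), 0.60 (Cxcl9) and 0.0018 (Cxcr6). With limma voom they became -0.023 (Cxcl10) and -0.030 (Ccl6). With 1 mouse left out they ranged from -0.088 to 0.033 (Cxcl12), -0.20 to 0.042 (Ackr1), -0.23 to 0.55 (Cxcl10), -0.017 to 0.34 (Ccl6), -0.025 to 0.12 (Ccl9) and -1.01 to 0.34 (Cxcl9). None of these passed the threshold in any fit. The cause was not tested. No paired analysis was possible because the replicate names are mouse numbers that no 2 genotypes share. Without mouse 702 the value moved to 0.046 for Cxcr4, -0.25 for Cxcr6 and -0.18 for Ccl12. The count filter left 23 members with reads untested, and without it 0 of 56 were called.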
